A study of Mus musculus with 8 samples.

Results

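The regions described here are distal stretches of open chromatin in mouse alveolar macrophages (AMs) that carry a DR1 element, a direct repeat of the nuclear receptor half-site AGGTCA with 1 base between the copies. They were found by ATAC-seq, an assay that reads accessibility from where a transposase inserts sequencing adapters. Members were autosomal regions with a peak in at least 2 of the 8 libraries, a summit at least 1 kb and at most 100 kb from the closest transcription start (TSS) of a coding gene or long noncoding RNA, and a DR1 match within 100 bp of the summit on either strand with at most 2 mismatches over the 12 half-site bases. The rule kept 2470 regions, out of 51739 distal autosomal regions and 72711 regions in all. It used sequence and position and compared no values between genotypes. The 2 libraries could be of the same genotype, and the summit was that of the strongest peak over all 8 libraries. Where a region was higher in 1 genotype, its window could thus be centred on a summit of that genotype.

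The libraries came from AMs sorted from the bronchoalveolar lavage of adult mice. The paper's main text calls these cells mature AMs, while a supplementary figure legend calls the KO cells immature AMs. Of the libraries, 4 were KO, with the genotype CD11cCre+ Rxrab fl/fl, where Cre under the Cd11c promoter removes both Rxra and Rxrb. The other 4 were WT, from Rxrab fl/fl animals, which carry the same floxed alleles without Cre. Mice of both sexes were used in the study, and no source used here ties a sex to a library. The Cd11c promoter is also active in dendritic cells and other myeloid cells. The cells that remain in the KO airspace are those that survive without RXR and, if sorted as the main text says, mature without it. The libraries are described as individual biological replicates sequenced in duplicate. No source says if the replicates named 1_2 and 1_3, or any other libraries of a genotype, come from 1 animal. If any do, p-values measure in part a technical spread.

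Retinoid X receptors bind DNA as the shared partner of other nuclear receptors, and the spacing between the half-sites selects the partner. The heterodimer of RXR with PPARγ, the receptor that directs lipid handling and maturation in AMs, binds DR1 elements, and prefers a 5′ extension reading AACT and an A as the spacer. RXR homodimers, HNF4 and COUP-TF proteins can also bind DR1 elements, so a match does not name the protein on it.

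The labelled cell type was checked on promoters. Of 10 AM marker promoters, 8 were open in all 8 libraries, among them Siglecf, Marco, Fabp4 and Pparg, and Chil3 and Krt79 were open in none. Of 6 promoters in each other list, none was open in all 8 libraries for T and B lymphocytes, 1 for endothelium (Pecam1), 2 for neutrophils (S100a8 and Cxcr2), 3 for epithelium (Scgb1a1, Epcam and Foxj1) and 3 for monocytes and interstitial macrophages. The surfactant genes Sftpc and Sftpa1 and the endothelial Cdh5, Tek and Vwf had a promoter peak in no library. Neither deleted gene was the nearest gene of a member. Of 21 regions nearest to Rxra, 1 intronic region (chromosome 2, 27744546 to 27744950, mm10) had a peak in the 4 WT libraries, with 38, 46, 38 and 42 tags at the summit, and in no KO library. Another, in an intron as well, was higher in KO (limma log2 difference 0.364 ± 0.125, SE, adjusted p = 0.0443), and none was lower. The 1 region nearest to Rxrb had a peak in 2 WT and 2 KO libraries, so its height could not be compared in the fit. Whether these regions lie in the deleted exons was not tested.

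The matches below are printed because the results turn on them, each with 8 bases on either side, read 5′ to 3′ on the strand of the match, from GRCm38 (mm10). Capitals mark the DR1 match, the seventh capital being the spacer. Each is named by the nearest coding gene unless another gene is said. The first 6 were lower in KO, the next 3 higher in KO, then come the 2 matches without mismatch at regions lower in KO, a region near Pdk4, 1 region with peaks only in WT libraries and 1 with peaks only in KO libraries.
Timm22, chr11:76415220-76415248, plus strand: cccaacccAGGTGAAAGGTCCgtgaatgt
Pdzd2 intron, chr15:12377955-12377983, plus strand: catgcccaAGCTCACAGTTCAcaggcggg
Htr7, chr19:36005177-36005205, minus strand: cagcttgaTGGTCAAGGGTCAcagagcaa
Ccnjl, chr11:43549927-43549955, plus strand: gcatggtcAGGGCAAAGGTCActtggcaa
Adtrp, chr13:41828595-41828623, plus strand: tgccatctCGGTAAAAGGTCAcgcctctg
Baz2b, chr2:59954899-59954927, plus strand: tcagcaggAGGTGAAAGATCAagtccttt
Smyd3, chr1:179459261-179459289, minus strand: acgtggggAGGTCAGAGGACAgtttgcag
Kcnk13, chr12:100005557-100005585, minus strand: ttgtccttTGGTCAGAGGGCAcctcaaaa
Itgax, chr7:128121785-128121813, minus strand: tatggcagAGCTCAGAGGTCAgtggtaga
Idh2, chr7:80109530-80109558, minus strand: cattttggAGGTCAGAGGTCAaccctgga
Mapk14 intron, chr17:28720959-28720987, plus strand: tagccagtAGGTCAGAGGTCActggggaa
Pdk4, chr6:5509900-5509928, plus strand: agtttagtAGGTGAAGGGTCActcttgtg
Ccdc60, chr5:116295989-116296017, plus strand: acacatccAGGTCACAGTTCAttatggag
AA467197, chr2:122652415-122652443, minus strand: agcgctgaGGGTCACAGGTCTcagtgaga

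Most members carried imperfect matches. Of the 2470, 39 had no mismatch, 358 had 1 and 2073 had 2. DR1 matches were present at 4.77% of distal regions and 2.08% of promoter regions (summit under 1 kb from a TSS). The same pattern read backwards without complement, ACTGGANACTGGA, was matched at 1601 distal regions (3.09%), of which 5 had no mismatch and 125 had 1. Matches with 2 mismatches exceeded the backwards pattern least, and those with none exceeded it most in proportion. Perfect matches lay in repeat-masked sequence more often than the others, at 48.7%, against 19.8% with 1 mismatch and 6.17% with 2. The spacer was G at 59.0% of the perfect matches and at 37.0% of those with 2 mismatches.

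Members had a summit in an intron in 1449 cases, between genes in 913, in a coding exon in 44, in an untranslated exon in 39 and in a noncoding exon in 25. The median distance of the match from the summit was 42 bp, against 47 bp for the backwards pattern. Other motifs of AM chromatin were about as frequent at members as at distal regions in general. PU.1 (GAGGAAG), the lineage factor of macrophages, was matched at 25.2% of members and 25.7% of distal regions, CEBP (TTGCNNAA) at 16.2% and 16.6%, AP-1 (TGANTCA) at 13% and 13.7%, and RUNX (TGTGGTT) at 8.87% and 10.4%. Both strands of the same window were searched for all motifs, the short ones without mismatch. A DR4 match, with 4 bases between the half-sites and up to 2 mismatches, was present at 134 members (5.43%), against 2.97% of distal regions.

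More members had a peak in the WT libraries than in the KO libraries. The number with a peak was 2142, 2330, 2200 and 2029 in the WT libraries (replicates 1_2, 1_3, 3, 4) and 1902, 2007, 1897 and 1955 in the KO libraries (replicates 1_2, 1_3, 2, 3). This came to 2175 ± 125 in WT and 1940 ± 51.7 in KO (SD, n = 4), and every WT library held more than every KO library. Over all distal regions the libraries of the genotypes overlapped. Depth differed too. Background tags (read ends) per 200 bp, worked back from the peak caller's statistics, ranged from 1.42 to 2.26 in WT and from 1.12 to 1.86 in KO. Taken per 100 distal regions with a peak in the same library, members numbered 4.96, 4.89, 4.98 and 4.99 in WT and 4.74, 4.64, 4.66 and 4.65 in KO. The groups did not overlap on this scale either. Members with peaks in 1 genotype alone entered through that genotype and count in both comparisons. Peaks in 2, 3 or 4 WT and no KO libraries occurred at 5.22%, 2.27% and 1.78% of members (distal regions 3.21%, 1.57% and 0.922%). Peaks in 2, 3 or 4 KO and no WT libraries occurred at 0.729%, 0.324% and 0.202% (distal regions 1.31%, 0.518% and 0.276%). Their part in the gap was not tested.

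**Figure D1:**
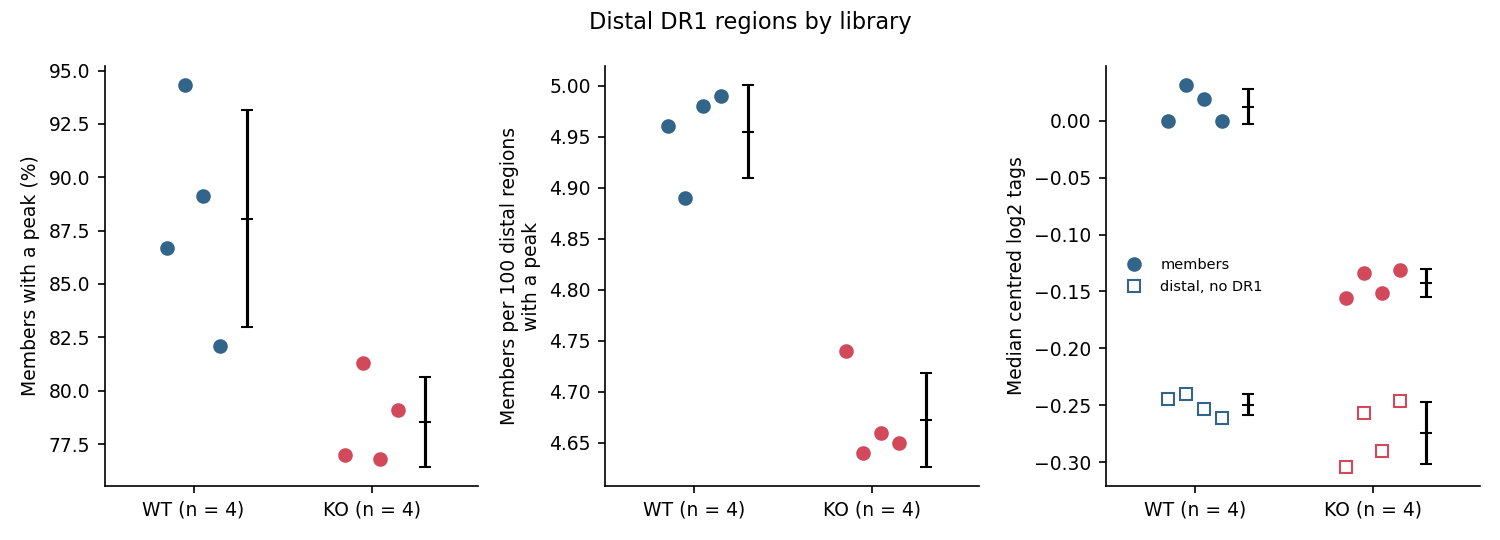
Each point is 1 library, by genotype on the x axis, and the black bars are mean ± SD (n = 4). The y axes give the percentage of members with a peak, the members per 100 distal regions with a peak (axes not starting at 0), and the median centred log2 tags at tested members (filled) and at distal regions without DR1 (open squares). WT libraries hold 82.1% to 94.3% of members and KO libraries 76.8% to 81.3%.

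The height of the members' summits was compared at regions with a peak in all 8 libraries, which 1572 of the 2470 members had. Tags at the summit, the number of overlapping read ends behind the peak caller's fold and p-value, were put on a log2 scale and centred on each library's median over 47499 such regions. The tested members lay above other distal regions in both genotypes, but by less in KO. Their median minus that of distal regions without DR1 was 0.245, 0.271, 0.273 and 0.261 in the WT libraries and 0.148, 0.122, 0.139 and 0.114 in the KO libraries, on the log2 scale. The distal regions themselves did not separate, at −0.250 ± 0.00922 in WT and −0.274 ± 0.0273 in KO (SD, n = 4).

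Region by region, more members were lower in KO than higher. With limma over all 47499 regions and a Benjamini-Hochberg adjusted p under 0.05, 299 of the 1572 tested members were lower in KO (19.0%), where 7.03% of all tested regions and 8.02% of distal regions without DR1 were. Only 45 tested members were higher (2.86%), where 5.81% of all tested regions and 5.28% of distal regions without DR1 were. The median log2 difference, KO minus WT, was −0.114 over tested members, 0.016 over distal regions without DR1 and 0.043 over all tested regions. Of the members' calls, 86.9% were lower in KO, against 54.7% of the calls over all regions. When libraries were scaled by their genome-wide background instead, 161 members were lower and 5 higher (97% lower), and 77.2% of the calls over all regions were lower. On the scale of log2 fold enrichment, 70 members were lower and 15 higher (4.45% and 0.954%, against 2.19% and 1.35% of all regions), with a median of −0.034. The KO libraries 1_2 and 1_3 differed by no more than sampling noise, as did KO 2 and 3 (chi-square per degree of freedom 0.980 and 1.01). Other pairs of KO libraries gave 1.10 to 1.28. WT 1_2 and 1_3 gave 1.34, above WT 1_2 and 3 at 1.12. With KO 1_2 and 1_3 counted as 1 sample, and KO 2 and 3 likewise, 177 members were lower and 12 higher, against 4.22% and 2.12% of all regions.

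**Figure D2:**
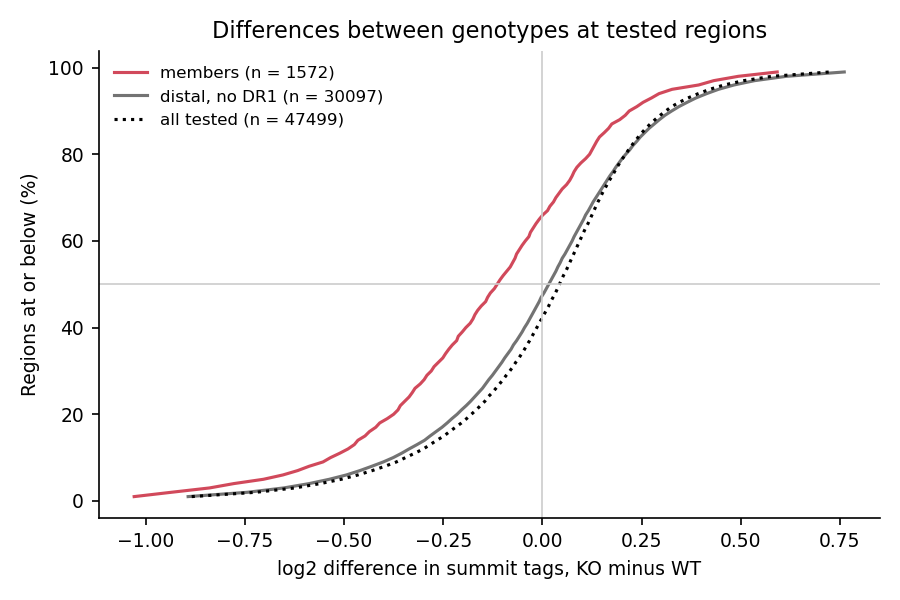
The x axis is the log2 difference in summit tags, KO minus WT, and the y axis the percentage of regions at or below it, for tested members (red), distal regions without DR1 (grey) and all tested regions (dotted). The members' curve lies to the left of both others, with a median of −0.114 against 0.016 and 0.043.

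The differences were modest in size. The 299 members called lower had a median difference of −0.545 (1.46-fold), and 20 of them exceeded 2-fold. The 45 called higher had a median of 0.552, with 2 beyond 2-fold. Called or not, every KO library lay below every WT library at 317 of the 1572 tested members (20.2%), where the share over all tested regions was 7.91%. Every KO library lay above every WT library at 61 (3.88%), where the share over all tested regions was 8.25%. A lower value in a sorted population can come from fewer cells with the region open or from less opening per cell, which cannot be told apart here.

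Members that lost their peak outright in KO were few. A peak in all 4 WT libraries and in no KO library (WT-only) was found at 44 members (1.78%), where the share over all autosomal regions was 0.831%. The reverse (KO-only) was found at 5 members (0.202%), where the share over all autosomal regions was 0.258%. The remaining members without a peak in all 8 libraries lay between. Members with peaks in more WT than KO libraries numbered 598 (24.2%), against 19.8% of distal regions, and those with more KO than WT libraries 161 (6.52%), against 10.8%. The missing peak means that the caller's threshold was not reached, not that the region was closed. Without WT replicate 4 there were 75 WT-only members (3.04%, against 1.52% of all autosomal regions). Without KO replicate 1_3 there were 69 (2.79%, against 1.29%). KO-only members numbered 9 without WT replicate 1_2 or 1_3 and 10 without KO replicate 1_2. The KO-only shares over all autosomal regions were then 0.336%, 0.475% and 0.405%.

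The spacing between the half-sites set DR1 apart from the other direct repeats. The same half-sites at spacings of 0, 2, 3, 4, 5, 6 and 7 bases, with the same 2 mismatches allowed, were lower in KO at 11%, 12.4%, 12.1%, 12.3%, 12.5%, 12.9% and 12.5% of the tested distal regions that held them. These lay above the 8.02% of distal regions without DR1 and below the 19.0% at DR1. Their median differences ranged from −0.020 to −0.051, against −0.114 for DR1. The backwards pattern gave 7.61% lower and 5.45% higher, with a median of 0.030. Members that held no DR4 match kept 18.9% lower, and DR4 regions that were no members had 11.4%. Windows can hold several patterns, so these groups share some regions.

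**Figure D3:**
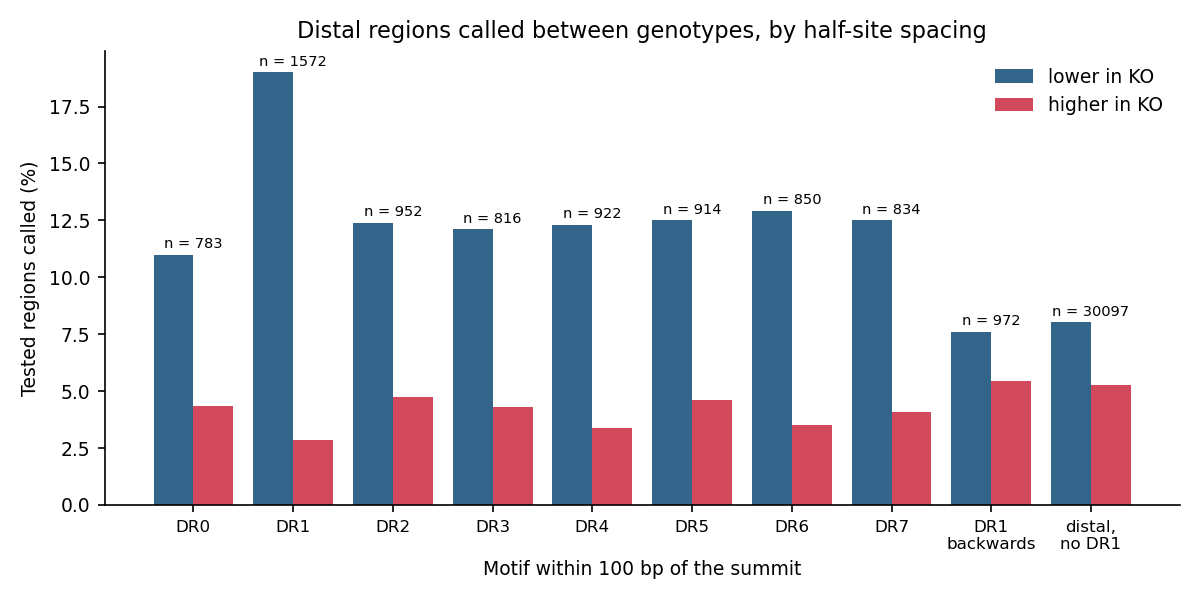
Bars give the percentage of tested distal regions called lower (blue) and higher (red) in KO at an adjusted p under 0.05, for half-sites spaced by 0 to 7 bases (DR0 to DR7), the DR1 pattern backwards and distal regions without DR1, with the number tested above each. DR1 has the tallest blue bar, at 19.0%, and the shortest red bar, at 2.86%.

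The share lower in KO varied with distance from a TSS. At promoter regions, 17 of 255 tested regions with a DR1 match were lower in KO (6.67%), where 2.67% of all tested promoter regions were. Beyond 100 kb from a TSS, 16 of 81 were lower (19.8%), close to the members' 19.0%. Among members, the share lower in KO was 15% at 1 to 5 kb, 19.9% at 5 to 20 kb, 16.6% at 20 to 50 kb and 28.4% at 50 to 100 kb from a TSS. All distal regions gave 7.27%, 8.07%, 9.22% and 11% in the same bins. The share was 21.1% with the summit in an intron and 15.6% between genes, where all distal regions gave 8.89% and 7.99%. Within 200 bp of the lower distance limit, 35 members lay above it and 31 autosomal DR1 regions below it. Within 10 kb of the upper limit, 27 members lay inside it and 27 DR1 regions outside it.

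The share lower in KO did not rise at each step towards a closer match to the half-sites. Of members with 1 mismatch, 47 of 225 tested were lower (20.9%, median −0.176), and of those with 2, 250 of 1325 (18.9%, median −0.102). Of the 22 tested members with a perfect match, 2 were lower and none higher, and their median was 0.048. These 22 had low summits, with a median of −0.412 in WT on the centred log2 scale, where members with 1 mismatch had 0.086. Splitting these 22 by repeat masking changed little, with 1 of 11 lower in each. Among repeat-masked matches, 3 of 43 tested members with 1 mismatch (6.98%) and 13 of 77 with 2 (16.9%) were lower. Over all members, 13% of those with a masked match and 19.6% of those with an unmasked match were lower.

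The spacer and the bases 5′ of the match varied with the outcome. With an A spacer, 110 of 402 tested members were lower in KO and 4 higher (27.4% and 0.995%). The share lower was 19.1% with G, 13.6% with T and 12.2% with C. Where 0, 1, 2, 3 and 4 of the 4 bases 5′ of the match were those of AACT, 16.0%, 15.3%, 26.6%, 34.8% and 27.3% were lower, the last of 11 tested. At least 3 such bases were present at 100 tested members, of which 34 were lower and none higher. With an A spacer as well, 15 of 32 were lower (46.9%, median −0.303). Members with neither feature had 15.4% lower and 3.72% higher, over 1102 tested. Per library, the median centred log2 tags of members with at least 3 such bases was 0.0863 ± 0.0382 in WT and −0.205 ± 0.0682 in KO (SD, n = 4), without overlap.

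Single bases of the match varied in the same comparison. A stood at the spacer in 36.8% of members lower in KO, 27.2% of all members and 8.89% of those higher. Within the 5′ half-site, the consensus base was commoner among members lower in KO at the last position (A in 95.7%, against 91.1% of all) and less common at the C before it (80.9% against 86.4%) and the T before that (68.2% against 72.8%). The base just before the match was G in 24.7% of members lower in KO, 33.1% of all and 48.9% of those higher. In the sequences printed above, Timm22, Htr7, Ccnjl, Adtrp and Baz2b have an A spacer, and the 3 regions higher in KO have G. Pdzd2, lower in KO, has C, and the perfect matches at Idh2 and Mapk14, lower as well, have G. The printed sequences are only a part of the named regions. Of the 8 lower in KO with the smallest p, those at Sptbn5 and Cytip, not printed, have C and T. Of the 8 higher, Rab37 and Ercc6, not printed, have C, and Mkx and Opcml have G.

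**Figure D4:**
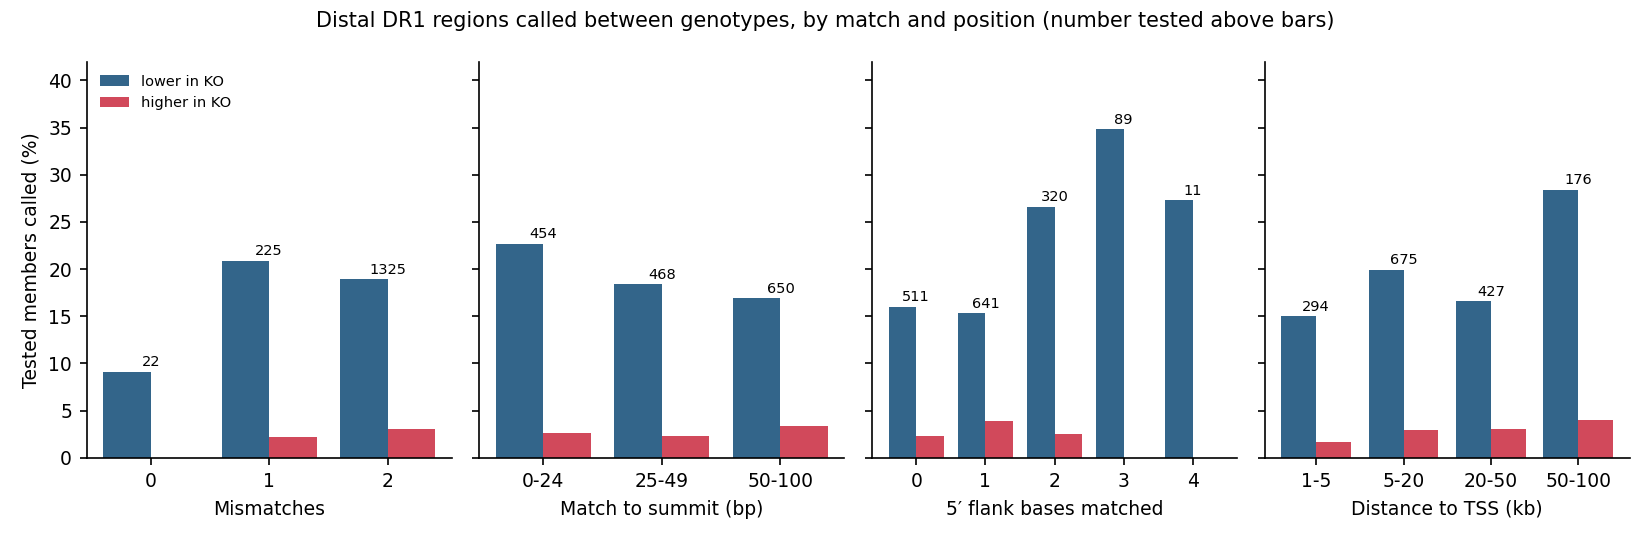
Bars give the percentage of tested members called lower (blue) and higher (red) in KO, by mismatches, by distance of the match from the summit in bp, by bases of the 5′ flank shared with AACT, and by distance from a TSS in kb, with the number tested above. The blue bars stand at 16.0%, 15.3%, 26.6%, 34.8% and 27.3% for 0 to 4 shared flank bases, and the class with no mismatch, of 22 regions, has the lowest bar in its panel at 9.09%.

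The share called also varied with position within the peak and with peak height. The share lower in KO was 22.7% where the match centre lay 0 to 24 bp from the summit, 18.4% at 25 to 49 bp and 16.9% at 50 to 100 bp. These summits came from the strongest peak of either genotype. By quartile of tags over all tested regions, members were lower in 11.4%, 18.4%, 21.4% and 25.1% from the lowest to the highest, and distal regions without DR1 in 5.73%, 8.89%, 10.1% and 7.67%. Members exceeded the other distal regions in every quartile. Their median difference did not grow with height, at −0.138, −0.112, −0.129 and −0.079. Beside a PU.1 match, 21.3% of tested members were lower in KO, beside AP-1 20.6%, beside CEBP 16.1% and beside RUNX 15.7%. Distal regions in general with PU.1, AP-1, CEBP and RUNX were lower in 8.43%, 8.48%, 9.0% and 9.41%. In the same order they were higher in 4.19%, 8.02%, 4.43% and 4.61%.

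The members with the smallest p among those lower in KO lay in or near genes of varied function. A region in an untranslated exon of Timm22 (chromosome 11, 76414945 to 76415422, mm10), a gene for a translocase of the mitochondrial inner membrane, had 153, 150, 122 and 136 tags in WT and 65, 49, 44 and 48 in KO. All KO libraries lay below all WT libraries, by −1.23 ± 0.128 on the log2 scale (SE, limma adjusted p = 6.34e-10). Its match lay 2 bp from the summit. A region in an intron of Pdzd2, whose nearest coding TSS is that of 1810049J17Rik (chromosome 15, 12377752 to 12378199), had 138, 172, 134 and 125 tags in WT and 74, 57, 46 and 43 in KO. The groups did not overlap, and the difference was −1.17 ± 0.122 (SE, limma adjusted p = 7.75e-10).

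An intronic region of Htr7 (chromosome 19, 36004942 to 36005459), a serotonin receptor gene, had 136, 176, 123 and 124 tags in WT and 77, 65, 51 and 47 in KO. This was 2.02-fold lower in KO on the centred scale (limma adjusted p = 2.15e-08). An intronic region of Ccnjl (chromosome 11, 43549676 to 43550163) had 166, 226, 177 and 157 tags in WT and 98, 103, 74 and 77 in KO. It was the strongest of the 8 by rank of q-value within a library, at a mean percentile of 77.9, and fell by 0.827 ± 0.101 on the log2 scale (SE, limma adjusted p = 4.05e-08). An intronic region of Adtrp (chromosome 13, 41828211 to 41828957), which encodes a hydrolase of fatty acid esters of hydroxy fatty acids, had 122, 146, 127 and 124 tags in WT and 66, 62, 49 and 53 in KO. Its match shares 3 of the 4 flank bases with AACT and has an A spacer.

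The largest fall among members lower in KO was in an intron of Baz2b (chromosome 2, 59954682 to 59955148), a gene for a bromodomain protein. The region had 60, 73, 65 and 51 tags in WT and 28, 15, 17 and 19 in KO, and fell by 1.45 ± 0.181 on the log2 scale (SE, limma adjusted p = 6.79e-08). The other 2 of the 8 lay in an intron of Sptbn5, a spectrin gene, with Pla2g4b as the nearest coding TSS, and in an untranslated exon of Cytip, which encodes a cytohesin-binding protein of leukocytes. They differed by −0.976 ± 0.120 and −0.991 ± 0.127 (SE), with no overlap between groups. At all 8 regions the WT and KO libraries were separate. On the scale of log2 fold enrichment, the Htr7, Baz2b and Pdzd2 regions still passed, and the other 5 differed by −0.161 to −0.45 with limma adjusted p from 0.053 to 0.448.

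Members higher in KO were fewer. The largest rise was in an intron of Smyd3 (chromosome 1, 179459004 to 179459484), a lysine methyltransferase gene, with 22, 20, 15 and 15 tags in WT and 55, 48, 39 and 44 in KO. The difference was 1.57 ± 0.186 on the log2 scale (SE, limma adjusted p = 2.25e-08), without overlap, and the match lay in repeat-masked sequence. An intronic region of Kcnk13 (chromosome 12, 100005269 to 100005676), a potassium channel gene, had 42, 50, 36 and 24 tags in WT and 71, 71, 63 and 55 in KO. It rose by 1.02 ± 0.155 (SE, limma adjusted p = 3.76e-06).

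A region 7.81 kb from the TSS of Itgax (chromosome 7, 128121392 to 128122161), in an intron of Gm49368, had 64, 71, 73 and 38 tags in WT and 90, 93, 79 and 71 in KO. Itgax encodes CD11c, the gene whose promoter drives Cre in the KO animals and not in WT. The difference was 0.684 ± 0.135 (SE, limma adjusted p = 0.000296), and on the scale of log2 fold enrichment it was 0.122 with an adjusted p of 0.492. The raw tags overlap between the groups, which separate after each library is centred. Another 4 lay in introns of Mkx, Opcml, Rab37 and Ercc6, with differences from 0.476 to 0.868.

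**Figure D5:**
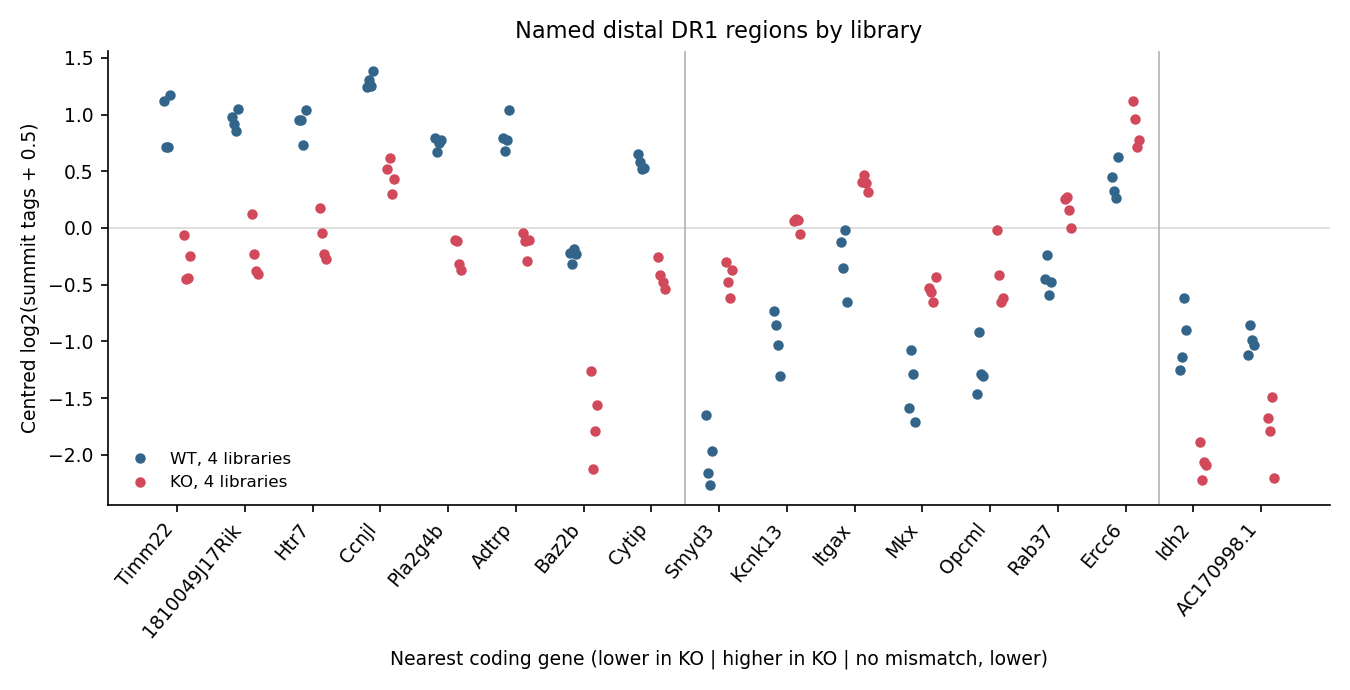
Each point is the centred log2(summit tags + 0.5) of 1 library, WT in blue and KO in red, at the 8 members lower in KO with the smallest p, 7 of the 8 higher in KO with the smallest p, and the 2 perfect matches lower in KO, named by the nearest coding gene. AC170998.1 is the region in an intron of Mapk14. WT and KO points do not overlap in any column, and the largest differences are at Smyd3 (1.57) and Baz2b (−1.45).

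Both perfect matches called lower in KO were small peaks. The region in an intron of Idh2 (chromosome 7, 80109360 to 80109732), the gene of mitochondrial isocitrate dehydrogenase, had 29, 41, 48 and 32 tags in WT and 18, 14, 14 and 13 in KO. It fell by 1.09 ± 0.197 on the log2 scale (SE, limma adjusted p = 8.25e-05), and its match is repeat-masked. The region in an intron of Mapk14 (chromosome 17, 28720666 to 28721128), which encodes a p38 kinase, had 32, 50, 37 and 29 tags in WT and 21, 19, 21 and 12 in KO, and fell by 0.789 ± 0.193 (SE, limma adjusted p = 0.00357).

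Among WT-only members, the one of highest mean percentile by q-value within its libraries was 7 kb from Ccdc60 (chromosome 5, 116295818 to 116296203), with 43, 46, 27 and 26 tags in the WT libraries. It has 2 DR1 matches. Others lay near Sec14l1, Cd200 and Sycp2l, with mean tags of 57.5 ± 10.7, 46.2 ± 6.02 and 23.0 ± 4.08 (SD, n = 4). Cd200 encodes a surface protein that restrains macrophages through its receptor. These were peaks of middle rank, with mean percentiles of 33.6 to 50.1 within their libraries. KO-only members lay near AA467197, Sash1, Plcb4 and Olfr164, and their mean tags ranged from 15 ± 2.45 at Olfr164 to 27.0 ± 3.37 at AA467197 (SD, n = 4).

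The members with the most tags were not called. The regions near Trim25, Herpud1 and Tnfaip3 had 662 ± 32.9, 636 ± 34.2 and 568 ± 115 tags in WT and 526 ± 38.0, 513 ± 65.5 and 468 ± 90.2 in KO (SD, n = 4). On the centred scale they differed by −0.120, −0.105 and −0.062, with limma adjusted p of 0.325, 0.403 and 0.654. Trim25 and Tnfaip3 act in antiviral and NF-κB signalling. The Trim25 region was called lower with quantile normalisation (adjusted p = 0.00541) and without WT replicate 1_3 (adjusted p = 0.0464), and the Herpud1 region with quantile normalisation (adjusted p = 0.0147).

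Members were also counted near listed genes, by their nearest coding gene. Of 20 genes of PPAR signalling and fatty acid oxidation, 2 were the nearest coding gene of a member, Hadhb and Pdk4, and 1 of the 2 members was tested. That region, 13.6 kb from Pdk4 (chromosome 6, 5509686 to 5510233), a kinase that turns cells from glucose to fatty acid oxidation, had 211, 303, 259 and 186 tags in WT and 153, 173, 160 and 164 in KO. It fell by 0.322 ± 0.0899 on the log2 scale (SE, limma adjusted p = 0.0115), with the highest adjusted p over the alternatives at 0.672. The same genes were nearest to 35 tested distal regions, with or without DR1, of which 9 were lower in KO (25.7%) and 1 higher, where 8.57% of all tested distal regions were lower and 5.16% higher.

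Of 26 genes of lipid droplets, lipid uptake and cholesterol, 10 had a member and 10 of their 13 members were tested. One was lower in KO, in an intron of Npc2 (chromosome 12, 84761249 to 84762004), which carries cholesterol out of lysosomes, with 122, 163, 131 and 118 tags in WT and 103, 89, 80 and 84 in KO. The difference was −0.364 ± 0.105 (SE, limma adjusted p = 0.0153), and it was 0.0689 with the replicate number as a block. Members near Abcg1, Acsl1, Plin2, Pnpla2, Mylip and Soat1 had differences from −0.336 to −0.025 and did not pass, and that near Abca1 had 0.33. Around these genes, 20 of 135 tested distal regions were lower (14.8%) and 9 higher.

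Of 21 genes that the study takes to be under direct RXR control, a list drawn in part from these samples and so no independent evidence, 7 had a member, and 2 of 11 tested members were lower in KO. They lay 35.1 kb from Cebpb (−0.246 ± 0.0777, limma adjusted p = 0.0275) and 97.6 kb from Tgfbr2 (−0.317 ± 0.106, limma adjusted p = 0.0390). Cebpb encodes a transcription factor of myeloid cells, and Tgfbr2 a receptor for TGF-β, on which AM development depends. At Tgfbr2 the groups overlapped, with 141, 193, 150 and 114 tags in WT and 133, 112, 84 and 85 in KO. With the replicate number as a block, only libraries whose number occurs in both genotypes inform the difference. Neither region then passed, with limma adjusted p of 0.078 at Cebpb and 0.0807 at Tgfbr2. Without WT replicate 3 or 4 or KO replicate 1_2, 2 or 3 the Cebpb region no longer passed, with adjusted p from 0.0517 to 0.0968. The Tgfbr2 region no longer passed without WT replicate 1_2, 1_3 or 3 or KO replicate 1_3, 2 or 3, with adjusted p from 0.0544 to 0.158. Of 25 nuclear receptor genes, Nr4a1, Nr4a2 and Rara had members, and none of the 3 tested was called. Around the 21 genes, 9 of 220 tested distal regions were lower (4.09%) and 17 higher, and around the nuclear receptor genes 1 of 92 was lower and 7 higher.

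Members were mostly spread singly. Another member lay within 10 kb of 244 of them (9.88%). Of 8 neighbouring pairs in which both were called, 7 changed in the same direction. Of all members' calls, 86.9% were lower in KO, so most pairs would share a direction in any case. Clmn was the nearest coding gene of 3 members lower in KO, the most of any gene, and was singled out after its values were seen. Its 5 intronic members lay 6.33 to 49.4 kb from the TSS on chromosome 12. The 3 that were called differed by −0.32 ± 0.0866, −0.70 ± 0.161 and −0.35 ± 0.117 (SE), with limma adjusted p of 0.0083, 0.00185 and 0.0369. Another, at −0.36 ± 0.191, did not pass (limma adjusted p = 0.218). The fifth had peaks in all WT libraries and in 2 KO libraries.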

How the data were processed

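ATAC-seq libraries of sorted AMs, 4 WT and 4 KO, were analysed, grouped by their labels. The authors' methods name Cutadapt for trimming and Bowtie2 for alignment to mm10. After duplicate removal, the authors extended reads to 200 bp around the cut and called peaks per library with MACS3 (q-value threshold 0.05). Each deposited peak has a fold enrichment over local background (a ratio), its p-value and q-value as −log10, and a summit position. The authors tested read counts per region with edgeR, which was not fitted here because the lists hold none. A deeper library reaches the threshold at smaller peaks, so occupancy follows depth. List lengths ranged from 60363 to 72484 peaks. Read totals were not used here.

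Summit tags were recovered from the fold and −log10 p under the caller's Poisson model, and gave back the p-value of 100% of peaks within a relative error of 1e-05. The lists were not made for comparing tags between libraries. Peaks sharing a base were merged, the strongest peak in a region gave its summit, and TSS came from GENCODE M21. The members and gene lists were chosen with earlier results of these data known. log2(tags + 0.5), centred per library, was compared with limma 3.58.1 (R 4.3.3, trended prior variance, Benjamini-Hochberg) at 47499 regions with a peak in all 8 libraries. In simulated tags at these regions, with 200 of them changed and a fixed spread between libraries, 86.0% of 2-fold and 33.5% of 1.5-fold changes were recovered. Named regions were the 8 lower and 8 higher with the smallest p, the 5 strongest WT-only and KO-only, called perfect matches, called members of the gene lists and the 3 with most tags. From these, 3 regions are not reported here. Alternatives were other scalings, log2 fold enrichment, pseudocounts of 0.1 and 1, a mean of at least 20 tags, averaged replicates, the replicate number as a block, leaving out each library, stricter peak sets and other motif and TSS rules.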

Additional observations from a re-analysis of the deposited data

Results flagged for a closer look

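Of 94 sets of 4 libraries examined with Dixon's ratio, 4 had a library far from the other 3, about what chance gives at 1 in 20. WT replicate 1_3, the deepest, had the highest median strength percentile of members, at 53.4, where the other WT libraries lay at 50.6 to 50.7. At the perfect matches, WT replicate 4 had a median centred log2 of −0.219, against −0.452 to −0.471 in the other WT libraries. At the Kcnk13 region, KO replicate 3 had a centred log2 of −0.051, below the other KO libraries. At the KO-only region near AA467197, KO replicate 2 had 32 tags, where the others had 25, 26 and 25.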

How the results depend on the processing

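The members' median difference stayed below 0 and below that of all regions under all alternatives of the fit, and more members were lower than higher in KO under each. Counts moved by over 1.5 times, or the median by more than the spread between libraries, as follows. With genome-wide background as depth, 161 were lower and 5 higher (median −0.167). With quantile normalisation the median was −0.128, with counts within 1.5 times. With log2 fold enrichment, 70 were lower and 15 higher (median −0.034). With the KO replicates averaged in pairs, an alternative chosen after seeing the data, 177 were lower and 12 higher. With at most 1 mismatch, which leaves 397 members, 49 were lower and 5 higher (median −0.171), 11 were WT-only and 1 KO-only, and the difference in members with a peak per library, KO minus WT, was −52, against −235. With A or G as first base, which widens the set to 3754, 69 were higher and 69 WT-only, and that difference was −333.5. With the match within 50 bp, which leaves 1317, 166 were lower, 23 higher and 24 WT-only. For lists of equal length there were 30 WT-only members (1.21%, against 0.639% of all autosomal regions) and 6 KO-only members. The KO-only share over all autosomal regions was 0.446%.

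Leaving out 1 library gave 239 to 277 members lower, 28 to 55 higher, a median of −0.127 to −0.105, 47 to 75 WT-only, 5 to 10 KO-only and a difference per library of −283.75 to −183.42. The 28 came without KO replicate 3. With 1 library left out, 0.93% to 1.52% of all autosomal regions were WT-only and 0.316% to 0.475% KO-only. Same-numbered libraries of the genotypes correlated at 0.0555, 0.116 and 0.0368 after removing the group means, each the best match of its number. Whether the number marks a shared batch or a pairing was not tested further, and the main fit did not use it. With the replicate number as a block, 294 members were lower and 55 higher (median −0.102), and 251 of those lower were among the 299. WT replicate 4 and KO replicate 2 have no partner of the same number, so they add nothing to the difference in that fit.

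With log2 fold enrichment, the regions near Cebpb, Trim25, Herpud1 and Tnfaip3 changed sign, to 0.018, 0.196, 0.060 and 0.064, none of them called, and 12 other named regions no longer passed. The cause was not tested. Depth limits these comparisons. Changes of 1.5-fold were recovered in 33.5% of the regions changed in the simulation. It changed 200 regions, where 3337 were called lower and 2759 higher in the data. Its recovery therefore need not be that of the real fit. A member that did not pass is not shown to be equal in both genotypes.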
